A study of Mus musculus with 8 samples.

Results

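The 53 genes described here encode 5 families of guidance ligands and receptors: 20 semaphorins, 9 plexins, 2 neuropilins, 14 Eph receptors and 8 ephrins. They were chosen by symbol, as every protein-coding gene of the families Sema3 to Sema7, Plxna to Plxnd, Nrp, Epha, Ephb, Efna and Efnb in the GENCODE M21 annotation, and are 53 of the 21755 protein-coding genes examined. The rule for membership uses gene symbols and no measured value. ATAC-seq, which marks open chromatin by the insertion of Tn5 transposase, was done on lines derived from mammary tumours of MMTV-PyMT mice, in which the polyomavirus middle T oncogene drives mammary tumours. The strain is labelled FBV/N. Lines were either WT or Lats1-CKO, that is, lacking the Hippo pathway kinase gene Lats1 in the epithelial compartment, and all carried the PyMT oncogene. Each was sorted by flow cytometry into a luminal population (EpCAM-high; CD49f-high) and a basal-like population (EpCAM-low; CD49f-high), which were then expanded briefly in culture, with no further treatment. Each of the 4 groups has 2 libraries. The WT libraries are BM1 and BM5 for luminal and BM2 and BM6 for basal-like cells, and the Lats1-CKO libraries are BM3 and BM7 for luminal and BM4 and BM8 for basal-like cells. The labels do not say from which line or animal each library came, so p-values below measure only the spread between these libraries.

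Semaphorins are secreted or membrane-bound ligands that act through plexins, and the secreted class 3 semaphorins mostly need a neuropilin as the ligand-binding co-receptor. Plexins signal through an intracellular GTPase-activating domain that acts on small GTPases. Eph receptors are receptor tyrosine kinases, and ephrins are their membrane-bound ligands, tethered by a glycolipid anchor in the A class and by a transmembrane segment in the B class, so that the signal passes between touching cells and in both directions. In epithelia, the mammary gland included, these systems control cell sorting, adhesion and migration.

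The measurement was the presence of a called peak and its score percentile, the rank of its score among all peaks of the same library from 0 to 100. A promoter peak is the strongest peak within 1 kb of any annotated transcription start site (TSS) of the gene, and a gene with none was given 0. The lists hold between 14753 peaks (BM3) and 99022 peaks (BM8), and the other 6 libraries hold 51497 to 93467. The study gives an average number of reads over its samples, and the number behind each list is not given in the sources used here, so the absence of a peak can mean closed chromatin or low depth. The study set aside 1 Lats1-CKO luminal replicate for quality without naming it in its text, and the calls between genotypes and between populations are given with and without BM3. Of 10 luminal marker genes, 4 to 10 had a promoter peak in a library, and of 10 basal-like marker genes 3 to 7 did. The basal-like marker Trp63 had none in any library, and Krt5, encoding a basal keratin, had one only in the Lats1-CKO luminal library BM7, at percentile 1.23. Of 10 fibroblast genes, 4 and 3 had a promoter peak in BM2 and BM6 (WT basal-like), 7 and 5 in BM4 and BM8 (Lats1-CKO basal-like), 2 and 3 in BM1 and BM5 (WT luminal), and 0 and 2 in BM3 and BM7 (Lats1-CKO luminal), while the collagen gene Col3a1 and the proteoglycan gene Lum had none in any. Pdgfra and Pdgfrb were higher in every basal-like than in every luminal library (2 of 10, against 0.487% of all genes), and 0 of 10 were lower (0.138%). For Pdgfra the nearest values, 78.677 in BM2 and 78.669 in BM1, are almost equal. Cells of different types within a library cannot be told apart in these lists. Lats1 had a promoter peak in 7 libraries and none in BM3, which does not check the deletion, since a promoter can stay open when exons are lost.

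The sequences of 6 regions that are named in the results below are shown first. They were read from GRCm38.p6, on the strand of the gene, and capitals mark matches to GGAATG (the core of TEAD sites, the factors through which the Hippo pathway acts), TGANTCA (AP-1), TGTGGT (RUNX) and CAGGTG (E-box) on either strand, and no marked match overlaps another. The first 3 are regions at Nrp1 and Plxnd1 that had a peak in BM4, BM7 and BM8 and in no WT library. They lie in an Nrp1 intron (chr8:128420122-128420333, plus strand), over a Plxnd1 coding exon (chr6:115959183-115959355, minus strand) and in a Plxnd1 intron (chr6:115991556-115991844, minus strand).
Nrp1, intron: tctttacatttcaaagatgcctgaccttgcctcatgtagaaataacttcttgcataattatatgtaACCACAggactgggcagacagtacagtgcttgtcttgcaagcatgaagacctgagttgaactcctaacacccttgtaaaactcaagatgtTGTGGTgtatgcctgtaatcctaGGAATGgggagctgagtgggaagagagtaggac
Plxnd1, coding exon: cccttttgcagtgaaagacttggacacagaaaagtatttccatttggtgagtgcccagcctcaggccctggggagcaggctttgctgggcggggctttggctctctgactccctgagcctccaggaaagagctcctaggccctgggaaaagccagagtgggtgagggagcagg
Plxnd1, intron: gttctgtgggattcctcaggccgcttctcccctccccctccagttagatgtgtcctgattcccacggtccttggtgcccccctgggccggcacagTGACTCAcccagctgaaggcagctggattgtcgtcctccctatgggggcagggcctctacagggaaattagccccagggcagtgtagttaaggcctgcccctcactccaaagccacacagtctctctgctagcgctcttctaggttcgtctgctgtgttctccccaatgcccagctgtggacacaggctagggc
The others are the parts of 3 promoter peaks that lie upstream of the gene's start, at the promoters whose percentiles did not overlap between genotypes or between populations over all 8 libraries. They are those of Epha1 (chr6:42373269-42373490, minus strand), Sema5a (chr15:32244658-32244809, plus strand) and Epha8 (chr4:136957261-136957377, minus strand).
Epha1, promoter: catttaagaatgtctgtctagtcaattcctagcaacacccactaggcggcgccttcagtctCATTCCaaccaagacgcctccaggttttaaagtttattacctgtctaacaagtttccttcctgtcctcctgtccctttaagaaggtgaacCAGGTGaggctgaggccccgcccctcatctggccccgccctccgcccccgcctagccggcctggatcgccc
Sema5a, promoter: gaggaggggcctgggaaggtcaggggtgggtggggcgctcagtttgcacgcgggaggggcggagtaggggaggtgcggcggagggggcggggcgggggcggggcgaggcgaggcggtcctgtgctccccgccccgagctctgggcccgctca
Epha8, promoter: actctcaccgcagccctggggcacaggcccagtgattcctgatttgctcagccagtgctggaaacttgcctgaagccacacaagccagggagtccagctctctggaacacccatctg
The Nrp1 intron holds 1 TEAD match and 2 RUNX matches, the Plxnd1 intron 1 AP-1 match, and the Epha1 promoter 1 TEAD and 1 E-box match. The region over the Plxnd1 exon and the upstream parts of the Sema5a and Epha8 promoters hold none of the 4 motifs in these windows. A region was named for a coding exon when any part of it overlapped one, so it can also hold intron. The upstream part of the Sema5a promoter has a GC content of 78.3%, against 55.9% for that of Epha1 and 43.4% for the Nrp1 intron.

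With BM3 counted, most of the genes had a promoter peak in some libraries and not in others. A promoter peak was present in all 8 libraries at 14 of 53 genes (26.4%, against 32.5% of all protein-coding genes), in none at 6 (11.3%, against 33.0%), and in some at the remaining 33 (62.3%, against 34.4%). The 14 are the semaphorin genes Sema3c, Sema3f, Sema4d, Sema6a and Sema6c, the plexin B receptor genes Plxnb1 and Plxnb2, the co-receptor gene Nrp2, the receptor genes Epha4, Epha7, Ephb3, Ephb4 and Ephb6, and the ligand gene Efnb2. The 6 without a promoter peak are Sema4g, Plxnc1, Epha10, Ephb2, Efna2 and Efnb3, of which Sema4g, Efna2 and Efnb3 had no peak in the gene body either. Ephb2, by contrast, had 2 to 7 gene-body peaks in each library but BM3. A further 14 genes had a promoter peak in 7 of 8 libraries. For 12 of these the library without one was BM3, for Epha1 it was BM4 and for Sema5a it was BM6. Thus 26 of 53 had a promoter peak in each of the 7 libraries other than BM3. The 33 genes with a peak in some libraries include these 12, and Plxna4, whose only promoter peak was in BM3. The share of all genes over the 7 libraries was not computed.

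Between groups, the number of genes with a promoter peak varied little apart from BM3. Among WT libraries it was 42 in BM1 and 35 in BM5 (luminal) and 41 in BM2 and 35 in BM6 (basal-like). The Lats1-CKO luminal libraries had 17 (BM3) and 42 (BM7), and the Lats1-CKO basal-like ones 36 (BM4) and 40 (BM8). The Lats1-CKO mean was 33.8 ± 11.4 (SD, n = 4) against 38.2 ± 3.77 in WT (n = 4), and 39.3 ± 3.06 (n = 3) without BM3, so the sign of the difference depended on that library and both differences lie within the spread. The same holds between populations, with 38.0 ± 2.94 genes in basal-like and 34.0 ± 11.8 in luminal libraries (n = 4 each), or 39.7 ± 4.04 luminal without BM3 (n = 3). Outside BM3, 66.04% to 79.2% of the genes had a promoter peak, above the 50.9% to 59.3% of all protein-coding genes in each library. In BM3 it was 32.1% of the 53 genes and 34.6% of all genes.

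**Figure D1:**
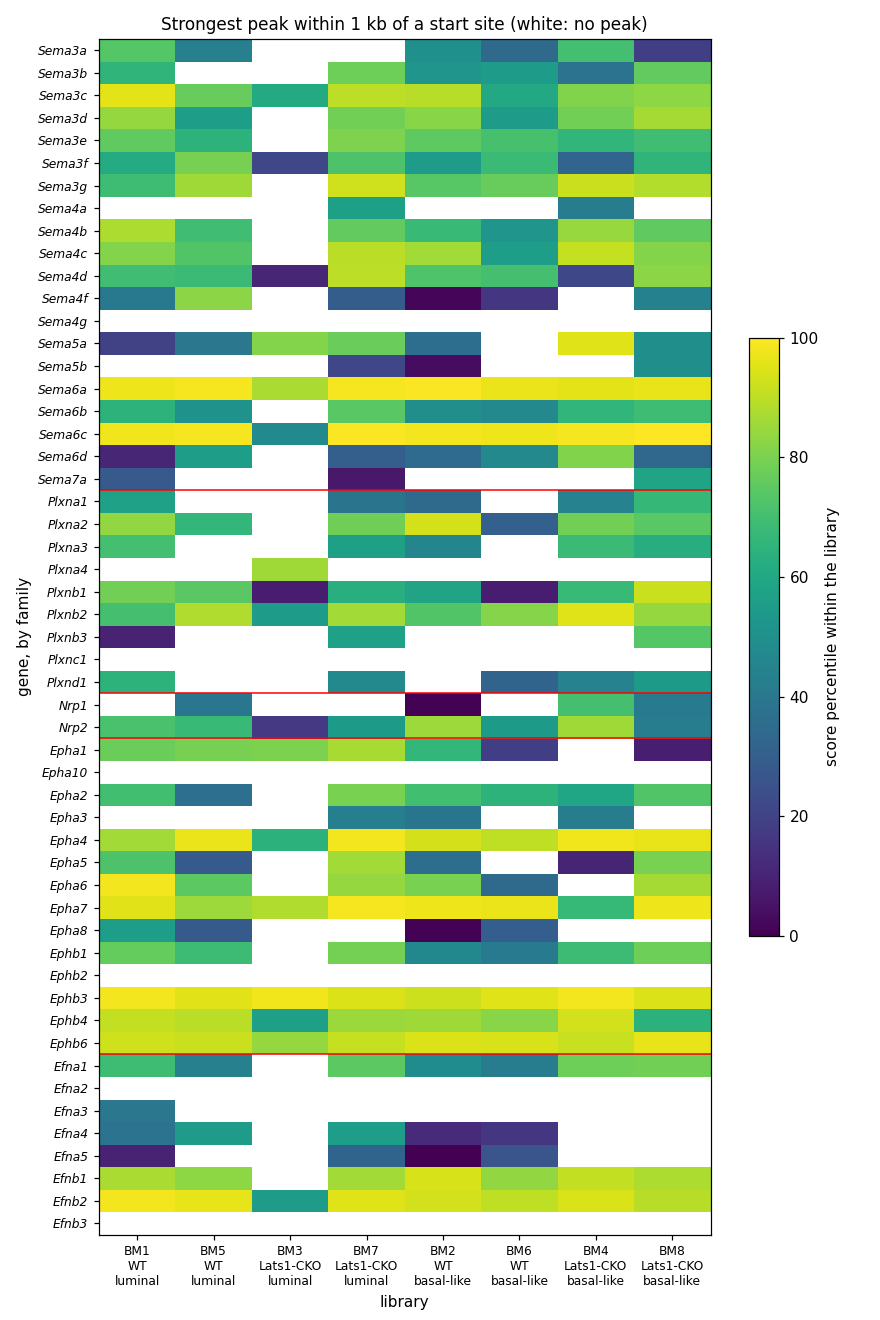
Score percentile of the strongest peak within 1 kb of a TSS for the 53 genes (vertical axis, by family, separated by red lines) in the 8 libraries (horizontal axis, by population and genotype); white marks no peak. Peaks were present in all libraries at 14 genes, and the column of BM3 has the fewest, 17.

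Among the semaphorin ligands, Sema6a (ENSMUSG00000019647, chr18:47235598-47368870, minus strand), a transmembrane semaphorin that binds A-type plexins, had a promoter peak in every library, at percentile 97.4 and 98.5 in WT luminal, 99.3 and 96.9 in WT basal-like, 87.1 and 98.7 in Lats1-CKO luminal, and 96.0 and 96.7 in Lats1-CKO basal-like libraries. The 7 libraries other than BM3 thus lie within 96.0 to 99.3. In basal-like cells both Lats1-CKO values are below both WT values, by a small margin. Sema6c, another transmembrane class 6 ligand, was also near the top, between 97.4 and 99.7 in 7 libraries and at 48.0 in BM3. At the other end, Sema4g had no peak, and Sema4a had a promoter peak only in BM7 (56.7) and BM4 (42.5). Sema5b had one in 3 libraries (3.18 in BM2, 21.3 in BM7 and 49.7 in BM8), and the glycolipid-anchored Sema7a in 3 (27.8 in BM1, 6.84 in BM7 and 58.5 in BM8). Among the secreted class 3 ligands, Sema3c (60.4 to 96.0) and Sema3f (21.3 to 79.4) had a promoter peak in all libraries, while Sema3d, Sema3e and Sema3g had one in all but BM3.

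Sema5a, encoding a transmembrane semaphorin with thrombospondin repeats, was the member whose promoter percentile was higher in every Lats1-CKO than in every WT library. It stood at 19.2 and 39.8 in WT luminal, at 36.1 and with no peak in WT basal-like, at 81.6 and 77.1 in Lats1-CKO luminal, and at 95.1 and 50.0 in Lats1-CKO basal-like libraries. All 4 Lats1-CKO values, BM3 included, are above the highest WT value, 39.8. The mean was 75.9 ± 18.9 in Lats1-CKO against 23.8 ± 18.2 in WT (SD, n = 4 each), a difference of 52.2 percentile points (two-sided exact permutation test p = 0.029, the smallest that 4 against 4 libraries allow; adjusted p = 1 over all genes by Benjamini-Hochberg). Without BM3 the Lats1-CKO mean was 74.1 ± 22.7 (n = 3) and the difference 50.3 points. This call was made for 1 of 53 members and for 0.267% of all genes. All values come from 1 region over the gene's start (chr15:32244658-32244896), whose upstream part is printed above. When each library was cut to its 51497 highest-scoring peaks, leaving out BM3, the value of BM8 became 3.78 against WT values of 0 to 31.3, so the groups overlapped. The difference was then 40.4 points (exact permutation p = 0.14). With each of the 8 libraries cut to its 14753 highest-scoring peaks it was 38.2 points (exact permutation p = 0.43). The difference was also no longer past 0.05 with a window of 5 kb (32.6 points, exact permutation p = 0.086).

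Leaving out BM3, 5 members were higher in every Lats1-CKO than in every WT library, against 6.91% of all genes: Sema5a, Sema3g, Sema6b, Sema6c and Efna1. Sema3g, a secreted class 3 ligand, stood at 69.1, 85.8, 74.0 and 76.9 in WT and at 92.9, 92.1 and 88.4 in the Lats1-CKO libraries BM7, BM4 and BM8. Its start window overlaps that of Nisch, so the peak belongs to either gene. Sema6b, a transmembrane class 6 ligand, stood at 64.7, 51.0, 49.3 and 47.1 in WT and at 74.3, 65.9 and 68.8 in those Lats1-CKO libraries. The nearest values of the groups, 64.7 and 65.9, are close. Sema6c ranged only from 97.4 to 98.5 in WT and from 98.6 to 99.7 in the 3 Lats1-CKO libraries. Efna1, a glycolipid-anchored ligand of EphA receptors, stood at 68.8, 43.5, 48.6 and 42.1 in WT and at 74.7, 77.8 and 78.9 in Lats1-CKO. None of the 5 had groups that stayed apart when the 7 libraries were cut to equal numbers of peaks, where 0 members were higher and 0 lower, against 1.68% and 2.63% of all genes. The split of all genes into higher and lower thus turned with the number of peaks compared. Each of these 3 Lats1-CKO libraries holds more peaks than any WT library. No gene of the 21755 passed an adjusted p of 0.05 in either comparison by the exact permutation test, and 163 had an unadjusted p under 0.05 between genotypes and 136 between populations.

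Among the plexin receptors, Plxnb2, a receptor for class 4 semaphorins, had a promoter peak between 54.9 and 95.1 in all libraries, and Plxnb1, the receptor for Sema4d, between 7.46 and 92.1. Of the A-type receptors, Plxna2 had one in all but BM3 (30.7 to 93.7), while Plxna1 and Plxna3 had one in the same 5 libraries, BM1, BM2, BM4, BM7 and BM8. Plxna4 was the reverse of the other members: its promoter peak was called only in BM3, at 85.9, in an intron, with its centre 1031 bp from the start, although Plxna4 had 2 to 8 gene-body peaks in the 7 other libraries. Plxnb3 had a promoter peak in BM1 (9.96), BM7 (57.1) and BM8 (73.6) and Plxnc1, the receptor for Sema7a, in none. Plxnd1, a receptor for Sema3e best known from endothelial cells, had one at 64.7 in BM1, 32.2 in BM6, 47.2 in BM7, 44.4 in BM4 and 54.3 in BM8, and none in BM2, BM3 and BM5. The BM8 value is that of a region 35736 bp inside the gene, 758 bp from a later annotated TSS.

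The 2 neuropilin co-receptor genes had unlike promoters. Nrp2 had a promoter peak in all libraries, at 71.4 and 67.3 in WT luminal, 85.4 and 54.6 in WT basal-like, 16.8 and 54.7 in Lats1-CKO luminal, and 85.8 and 42.3 in Lats1-CKO basal-like libraries. Nrp1 had one at 70.4 in BM4, 40.6 in BM8, 39.1 in BM5 and 0.492 in BM2, and none in BM1, BM3, BM6 and BM7. The groups overlap for Nrp2, and for Nrp1 the Lats1-CKO basal-like values are the 2 highest.

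Among the Eph receptors, Epha1, encoding an EphA receptor of epithelia, was the member whose promoter percentile was lower in every basal-like than in every luminal library (1 of 53 members, against 0.138% of all genes). No member was higher in every basal-like library (0 of 53, against 0.487%). Epha1 stood at 77.6 and 79.4 in WT luminal, 80.4 and 87.0 in Lats1-CKO luminal, 66.4 and 18.7 in WT basal-like, and 8.57 with no peak in the other library in Lats1-CKO basal-like cells. The luminal values are close together, with BM3 among them, and the basal-like values spread from no peak to 66.4. The mean was 81.1 ± 4.12 in luminal and 23.4 ± 29.7 in basal-like libraries (SD, n = 4 each), a difference of -57.7 points (two-sided exact permutation test p = 0.029, adjusted p = 1). With each library cut to its 14753 highest-scoring peaks, as many as BM3 has, it was -29.1 points (exact permutation p = 0.14). Without BM3 the luminal mean was 81.3 ± 5.02 (n = 3) and the difference -57.9 points (exact permutation p = 0.057). The region covers the start of the gene (chr6:42373163-42373490), and its upstream part is the one printed above. Epcam, whose protein was used for the sort, had a promoter peak at 88.0 and 66.04 in WT luminal, 65.0 and 74.4 in Lats1-CKO luminal and 66.1 and 22.5 in WT basal-like libraries, and none in BM4 and BM8. Both genes were lowest in BM4 and BM8, but the populations overlapped for Epcam, with BM2 above BM3 and BM5. Of the 10 luminal marker genes, 0 were lower and 0 higher in every basal-like than in every luminal library. Elf5, another of them, stood at 93.3 and 86.7 in BM4 and BM8, against 0 to 81.4 in luminal libraries. Foxa1 stood at 5.12 and 0 there, against 0 to 87.2. The part of these markers in the Epha1 result was not tested. Within the 2 basal-like groups, both Lats1-CKO values of Epha1 were below both WT values, whereas within luminal cells both were above.

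Epha8 was the member lower in every Lats1-CKO than in every WT library, 1 of 53 against 0.483% of all genes, and against 0.529% without BM3. It had a promoter peak at 55.9 and 28.5 in WT luminal and 0.402 and 30.0 in WT basal-like libraries, and none in the 4 Lats1-CKO libraries. The mean was 28.7 ± 22.7 in WT and 0 in Lats1-CKO (n = 4 each; two-sided exact permutation test p = 0.029, adjusted p = 1). The values of BM1, BM5 and BM6 come from 1 region, the one printed above, while the peak of BM2 lies elsewhere in the window and is among the weakest of that library. Among equal numbers of 51497 peaks, that of BM2 was not retained, and among 14753 no library kept a peak there.

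Of the other Eph receptors, Ephb3 had promoter peaks at 92.3 to 98.2 in all 8 libraries, BM3 included (97.7), so that its promoter was the most uniform of the family. Ephb6, a receptor without kinase activity, ranged from 84.1 to 96.3, Epha7 from 66.9 to 98.6, Epha4 from 64.4 to 98.4, and Ephb4, the receptor for Efnb2, from 56.4 to 93.1. Epha2, a receptor common in epithelial tumours, stood at 36.7 to 79.7 in 7 libraries with none in BM3. Epha5 and Epha6 had a promoter peak in 6 libraries each, Epha3 in 3 (38.8 in BM2, 43.3 in BM7 and 42.5 in BM4), and Epha10 and Ephb2 in none.

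Among the ephrin ligands, Efnb2, the transmembrane ligand of Ephb4, had a promoter peak at 98.2 and 96.5 in WT luminal, 93.0 and 90.4 in WT basal-like, 54.9 and 95.2 in Lats1-CKO luminal, and 94.4 and 89.1 in Lats1-CKO basal-like libraries. Efna4, a glycolipid-anchored ligand, stood at 38.1 and 54.8 in WT luminal, at 55.7 in BM7 with none in BM3, at 12.3 and 15.7 in WT basal-like, and had no peak in BM4 and BM8. Without BM3, both were lower in every basal-like than in every luminal library, as was Epha1 (3 of 53, against 1.93% of all genes), while 0 of 53 were higher (0.487% of all genes, the same as with BM3). For Efnb2 the luminal mean without BM3 was 96.6 ± 1.48 (n = 3) against 91.7 ± 2.41 (n = 4) in basal-like, and for Efna4 it was 49.5 ± 9.93 against 7.01 ± 8.21. Efnb1, on the X chromosome, had a promoter peak at 83.0 to 93.8 in all but BM3. Efna5 had one in 4 libraries, at most at 32.2, Efna3 only in BM1 (39.6), and Efna2 and Efnb3 in none.

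**Figure D2:**
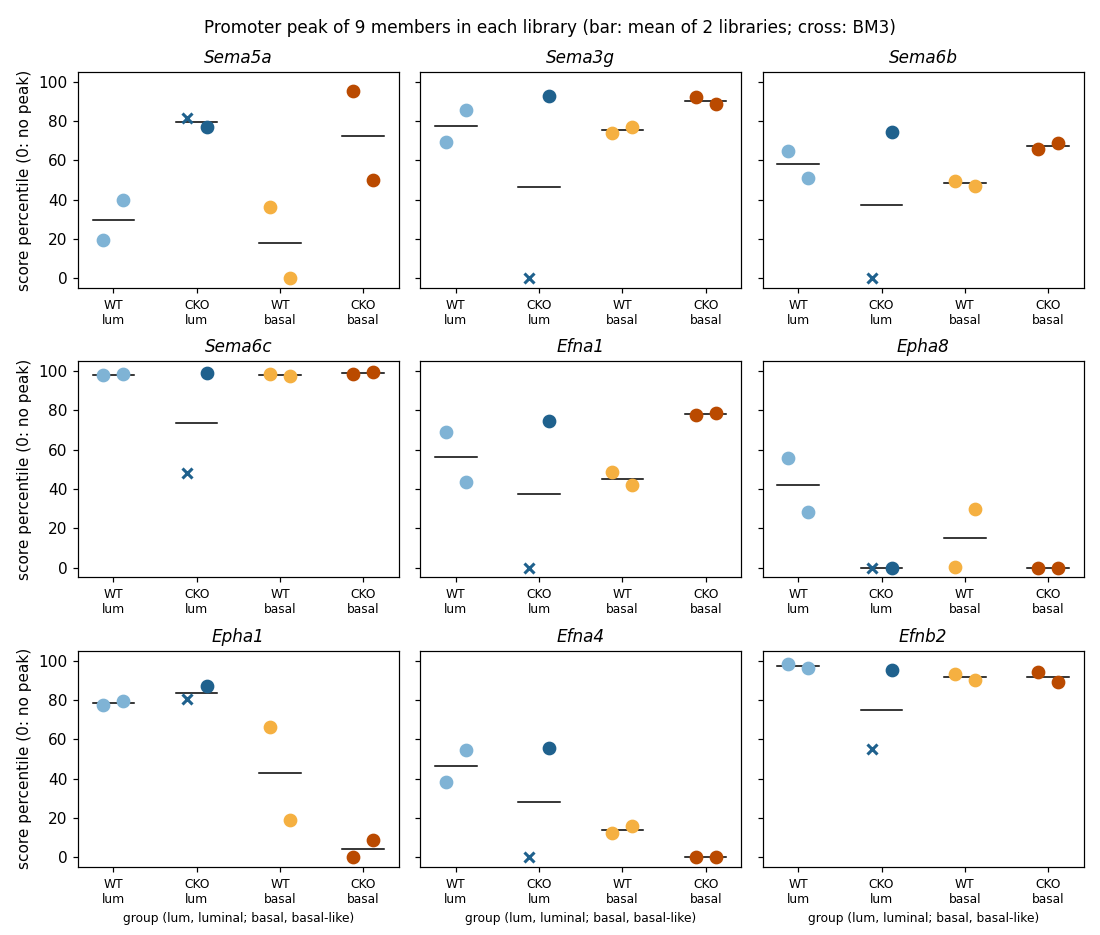
Promoter score percentile (vertical axis, 0 to 100, 0 for no peak) of 9 members in each library, by group (horizontal axis); points are libraries, crosses are BM3 and bars are means of 2 libraries. For Sema5a all 4 Lats1-CKO points lie above 39.8, the highest WT value, and for Epha1 the luminal points lie between 77.6 and 87.0, above all basal-like points.

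Within the basal-like populations, the Lats1-CKO lists hold 86279 (BM4) and 99022 (BM8) peaks, against 70446 (BM2) and 51497 (BM6) in WT. Here 14 members were higher in both Lats1-CKO than in both WT libraries (26.4% of 53, against 20.8% of all genes). These are the semaphorins Sema3g, Sema4b, Sema5a, Sema6b and Sema6c, the plexins Plxna1, Plxna3, Plxnb1, Plxnb2 and Plxnd1, Nrp1, the receptors Epha4 and Ephb1, and Efna1. The 6 that were lower (11.3%, against 4.13% of all genes) are Sema3e, Sema6a, Epha1, Epha8, Efna4 and Efna5. By the difference of the means, Nrp1 (55.2 points) and Sema5a (54.5) had the largest steps among those that were higher. Plxnb1 stood at 67.5 and 92.1 against 58.5 and 7.61, and Plxna3 at 68.1 and 62.5 against 45.4 and no peak. When these libraries were cut to their 51497 highest-scoring peaks, Efna1, Epha4, Ephb1, Plxna3, Plxnb1 and Sema3g stayed apart. The others of the 14 overlapped. Nrp1 then had 50.3 in BM4 and no peak in BM8, BM2 or BM6. Sema5a had 91.7 in BM4 and 3.78 in BM8, against 12.5 in BM2 and no peak in BM6. Of the 6 that were lower, Sema3e, Sema6a and Epha1 stayed apart at this cut, and Efna4, Efna5 and Epha8 did not. Sema3f, Epha2 and Epha7 became lower in both Lats1-CKO libraries, Epha2 at 31.2 and 48.0 against 58.7 and 64.5. The share of all genes was not computed at equal numbers for this contrast. Between the WT populations, 3 members were higher in both basal-like libraries (5.66% of 53, against 4.73% of all genes), namely Sema4d, Epha7 and Ephb6. The 10 that were lower (18.9%, against 10.9%) are Sema4b, Sema4f, Sema6b, Plxnb1, Epha1, Ephb1, Ephb3, Ephb4, Efna4 and Efnb2. By the difference of the means, Sema4f had the largest step of these (-52.8 points), from 40.4 and 82.7 in WT luminal to 1.69 and 15.7 in WT basal-like libraries. With 2 libraries against 2 these contrasts are descriptions.

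Over all 53 members, the promoter percentile was higher on average in Lats1-CKO for 17 and lower for 30 with 8 libraries (32.1% and 56.6%, against 28.9% and 38.1% of all genes), with a median difference of -1.79 points against 0 over all genes. Without BM3 it was higher for 31 and lower for 15 (58.5% and 28.3%, against 50.4% and 16.6% of all genes), with a median of 1.74 points against 0.070 over all genes. The median thus changed sign without BM3.

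Peaks in the gene body numbered 29 in BM3 and 154 to 313 in the other libraries for the 53 genes together. Per 10000 peaks of the library this was 29.0 and 28.6 in WT luminal, 32.1 and 29.9 in WT basal-like, 19.7 and 31.9 in Lats1-CKO luminal, and 30.6 and 31.6 in Lats1-CKO basal-like libraries. The mean was 28.4 ± 5.88 in Lats1-CKO and 29.9 ± 1.56 in WT (SD, n = 4 each), or 31.4 ± 0.677 in Lats1-CKO without BM3 (n = 3). Basal-like libraries had 31.0 ± 0.982 and luminal libraries 27.3 ± 5.29 (n = 4 each), or 29.8 ± 1.79 without BM3 (n = 3). Each of these differences is smaller than the larger SD of the groups compared, and that between genotypes changed sign without BM3. Over all protein-coding genes the gene-body peaks per 10000 were highest in BM3 (7147, against 5940 to 6369 in the other libraries), whereas for the 53 genes BM3 was the lowest.

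**Figure D3:**
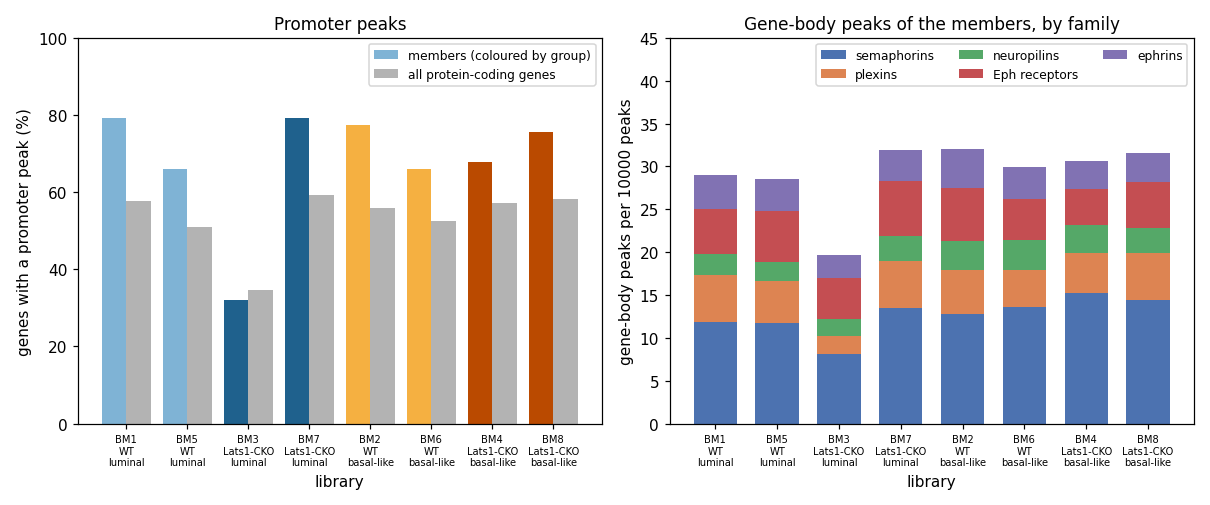
Left, percent of the 53 genes (coloured by group) and of all protein-coding genes (grey) with a promoter peak in each library; right, gene-body peaks of the 53 genes per 10000 peaks of the library, stacked by family. In BM3 the share of the 53 genes, 32.1%, is below that of all genes, and its stack, 19.7, is the shortest.

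Merged over the libraries, the peaks formed 611 regions at these genes, of which 267 lie at semaphorins, 119 at Eph receptors, 100 at plexins, 57 at ephrins and 52 at neuropilins within the gene bodies. Per 100 kb of gene the density was highest for the neuropilins (19.99) and ephrins (15.3), followed by plexins (10.4), semaphorins (9.93) and Eph receptors (4.36). Of the 611 regions 79.9% lie in introns and 82.8% farther than 1 kb from any TSS of the gene. A peak was present in exactly 1 library at 46.6% of them (41.4% of regions at all protein-coding genes) and in all 8 at 3.44% (8.19%). The most regions were found in Sema6d (47), Plxna2 (38), Efna5 (37), Sema5a (37), Sema3a (34) and Nrp2 (27). All of these are long genes, from 115 kb for Nrp2 to 578 kb for Sema6d.

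Sema6d (ENSMUSG00000027200, chr2:124089969-124667770, plus strand), encoding a transmembrane ligand of Plxna1, had the widest range of gene-body peaks. It had 2 and 9 in WT luminal, 6 and 6 in WT basal-like, 0 and 10 in Lats1-CKO luminal, and 30 and 23 in Lats1-CKO basal-like libraries. Per 10000 peaks this was 0.275 and 1.53, 0.852 and 1.17, 0 and 1.07, and 3.48 and 2.32, so that both Lats1-CKO basal-like libraries are above the other 6. Of its 47 regions 29 had a peak in a single library, 15 of them in BM4 and 8 in BM8. Its promoter peak did not follow this order: it stood at 81.1 in BM4 but at 33.7 in BM8, below the 56.2 of BM5 and the 47.1 of BM6. Beside this, 7 and 5 of 10 fibroblast genes had a promoter peak in BM4 and BM8, against 0 to 4 in the other libraries. The summed percentile of these 10 genes was 359 and 230.0 there, against 0 to 173 elsewhere. Col3a1 and Lum were at 0 in all, while Pdgfra and Pdgfrb were higher in every basal-like than in every luminal library, of both genotypes. For Pdgfra the nearest values, 78.677 in BM2 and 78.669 in BM1, were almost equal. Pdgfrb stood at 22.3 and 62.0 in BM2 and BM6 and at 89.9 and 49.7 in BM4 and BM8, with no peak in luminal libraries. The part of these 10 genes in the result was not tested.

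Across genotypes without BM3, gene-body peaks per 10000 were higher in every Lats1-CKO library at 3 members (5.66% of 53, against 3.09% of all genes), the receptor gene Epha3, Plxna2 and Sema5b, and lower at 4 (7.55%, against 9.66%), namely Efnb2, Ephb6, Plxnb2 and Sema3g. Plxna2, a receptor for class 3 and class 6 semaphorins, had 12 and 10 peaks in WT luminal, 12 and 7 in WT basal-like, 0 and 21 in Lats1-CKO luminal, and 16 and 24 in Lats1-CKO basal-like libraries. Per 10000 peaks that is 1.36 to 1.70 in WT and 1.85 to 2.42 in the 3 Lats1-CKO libraries. Sema5b had 0 or 1 peak in the WT libraries and 2, 4 and 4 in BM7, BM4 and BM8. Its nearest values per 10000 were 0.194 in BM6 and 0.214 in BM7. For Epha3 they were 0.426 in BM2 and 0.428 in BM7, from 3 and 4 peaks, so the separation of both genes is narrow. With all 8 libraries 0 members were higher (against 0.883% of all genes) and 3 were lower (3.48%), Efnb2, Plxnb2 and Sema3g. Ephb6 had 2 peaks in each of the 8 libraries and Sema3g 1 in each but BM3, so outside BM3 their values per 10000 differed by the length of the lists alone. Efnb2 had 4 or 5 peaks in WT and 3 to 5 in BM4, BM7 and BM8, and Plxnb2 had 4 to 6 and 3 to 5.

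Between populations, Sema3a, the prototype secreted semaphorin, was the member with more gene-body peaks per 10000 in every basal-like library (1 of 53, against 0.86% of all genes), and 0 of 53 had fewer (0.432%). Without BM3, Sema3a remained the 1 member with more (against 1.42% of all genes), and 1 had fewer (1.14%), the receptor gene Epha5, with 0.138, 0.340 and 0.214 in BM1, BM5 and BM7, 0 in both WT basal-like libraries, and 0.116 and 0.101 in BM4 and BM8, from at most 2 peaks in a library. The values of Sema3a were 1.51 and 1.36 in WT luminal, 0 and 1.18 in Lats1-CKO luminal, 1.99 and 1.55 in WT basal-like, and 2.43 and 1.72 in Lats1-CKO basal-like libraries. The nearest values, 1.51 in BM1 and 1.55 in BM6, correspond to 11 and 8 peaks, so the separation is narrow. Within basal-like cells, 8 members had more gene-body peaks per 10000 in both Lats1-CKO libraries (15.1%, against 10.8% of all genes): Sema5b, Sema6d, Sema7a, Plxna2, Plxnd1, Nrp1, Epha3 and Epha5. A further 15 had fewer per 10000 (28.3%, against 19.8% of all genes), 5 of which are the semaphorins Sema3b, Sema3d, Sema3g, Sema4b and Sema6b. The lists of BM4 and BM8 are longer than those of BM2 and BM6, so fewer per 10000 need not mean fewer peaks. Sema3b and Sema3g had 1 peak in each of these libraries. Sema4b had 6 and 7 in BM4 and BM8 against 6 and 5 in BM2 and BM6, and Efna1 4 and 5 against 4 and 3. Efna4, by contrast, had 0 in BM4 and BM8 against 1 in each of BM2 and BM6. Nrp1 had 13 and 16 peaks in BM4 and BM8 against 10 and 5 in BM2 and BM6. Plxnd1 had 8 and 6 against 2 and 2. Of 6 endothelial genes, 4 and 3 had a promoter peak in BM4 and BM8, 2 and 2 in BM2 and BM6, and 0 to 3 in the luminal libraries, and their part in the Plxnd1 and Nrp1 values was not tested.

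At single regions, 10 of 611 (1.64%) had a peak in BM4, BM7 and BM8 and in no WT library, against 1.56% of the 103285 regions at protein-coding genes. None (0 of 611) had a peak in all 4 WT libraries and in none of those 3, against 0.0639%. The 10 lie at Nrp1 (2), Plxnd1 (2), Sema6d (2), Sema4b, Sema4f, Epha1 and Ephb2. The share is near that of all genes. The region at Ephb2 (chr4:136649937-136650170), in the annotated UTR, had the highest smallest percentile, with 66.4 in BM4, 60.5 in BM7 and 71.1 in BM8, at a gene without a promoter peak in any library. The first Nrp1 region printed above had 64.3, 52.9 and 86.1 in the same order, and lies 61624 bp downstream of the start of the gene. The Plxnd1 regions had 36.4, 38.5 and 54.3 over the coding exon and 83.3, 20.8 and 43.6 in the intron, 35736 and 3305 bp from the start. The one over the exon lies 758 bp from a later annotated TSS, so it also counts as a promoter peak. Its 54.3 in BM8 is the promoter value given for Plxnd1 in that library. The Epha1 region (chr6:42362435-42362610, intron) had 42.5, 10.1 and 18.5. The Epha1 promoter was at its lowest in BM4 and BM8 and at its highest, 87.0, in BM7.

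A further 13 regions (2.13%, against 2.01%) had a peak in BM4 and BM8 and in no other library. Sema6d has 4 of them and Sema5a 2, and Nrp1, Plxnd1, Sema3a, Sema3f, Sema4c, Sema5b and Sema6a have 1 each. The Sema6d regions with the highest percentiles in both libraries are chr2:124522338-124522752 in an intron (61.0 in BM4 and 57.2 in BM8) and chr2:124660831-124661038 over a non-coding exon (58.2 and 56.2). The region at Sema6a is weak, at 2.45 and 14.6.

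**Figure D4:**
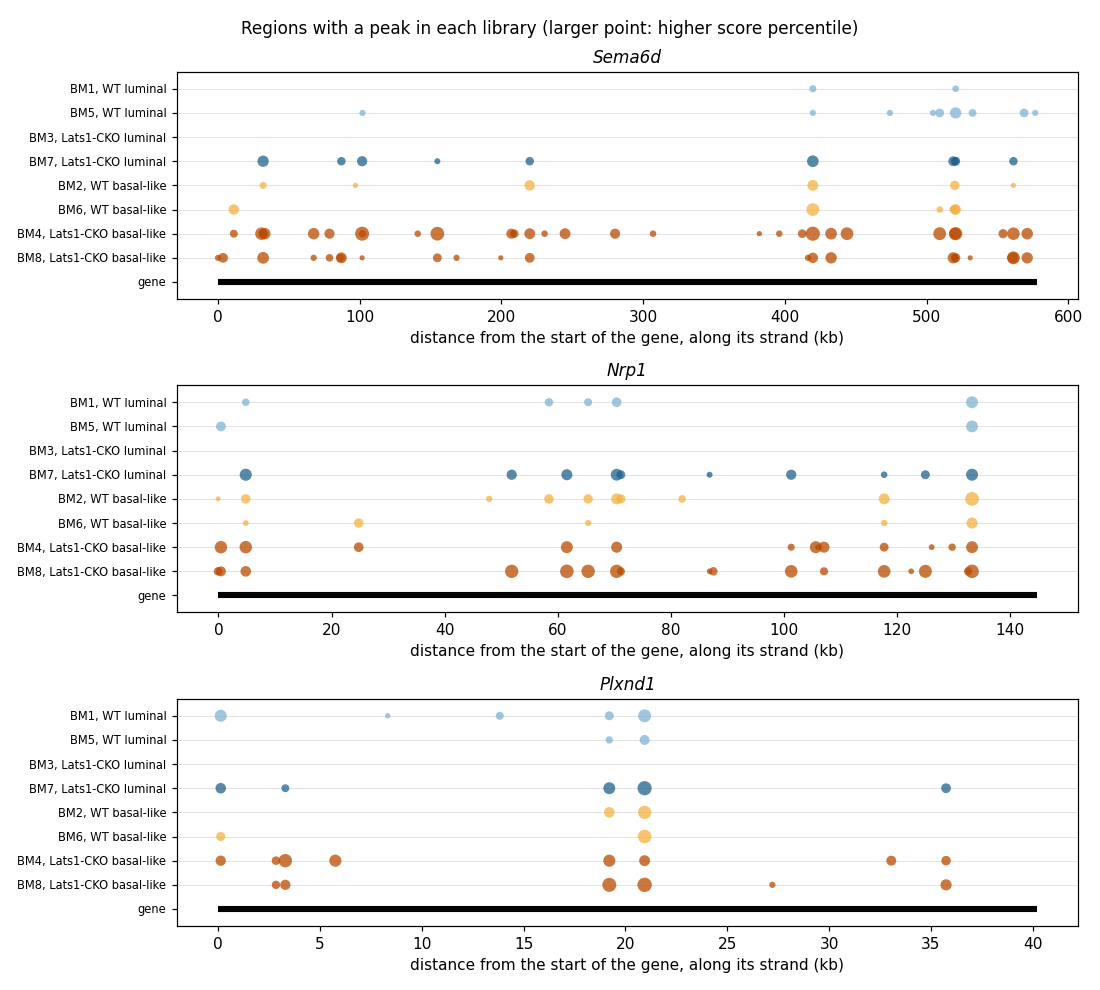
Regions with a peak along Sema6d, Nrp1 and Plxnd1 (horizontal axis, distance from the start of the gene in kb) in each library (rows, coloured by group); larger points have a higher score percentile and the black bar is the gene. In Sema6d the 30 peaks of BM4 and 23 of BM8 are spread over the whole gene, and BM3 has none in any of the 3 genes.

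The motifs marked in the sequences were found at similar shares in the regions of these genes and in all regions. Within the central 200 bp, GGAATG was found in 15.7% of the 611 regions (15.8% of all 183173 merged regions), TGANTCA in 23.4% (26.1%), TGTGGT in 22.3% (21.6%) and CAGGTG in 14.4% (13.6%). In the 10 regions with a peak in BM4, BM7 and BM8 and no WT library, the numbers with a match were 3, 2, 4 and 0 in the same order. Over all 2739 such regions of the genome the shares were 18.1%, 26.4%, 23.8% and 7.85%. These are matches of letters in a window, and no test was made.

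Genes that act with these receptors were mostly open. Of 39 signalling partners, such as the GTPase genes Rhoa and Rac1, the collapsin response mediators and the Mical oxidoreductases, 26 had a promoter peak in BM3 and 32 to 39 in the other libraries, a larger share than of the 53 members in every library. Of 24 genes of other guidance systems, among them slits, robos and netrins, 6 had one in BM3 and 11 to 17 elsewhere. Over all 8 libraries 0 of the 39 and 0 of the 24 were higher or lower in every Lats1-CKO library. Without BM3, 4 of the 39 were higher (Arhgef15, Rnd2, Rras and Src) and 1 of the 24 (Unc5b, a netrin receptor), against the 6.91% of all genes given above, and 0 were lower in either list. No gene of either list was separate between populations in any direction, with or without BM3. Within basal-like cells 13 of the 39 were higher in both Lats1-CKO libraries and 2 lower, and of the 24 other guidance genes 5 were higher and 4 lower, beside 20.8% and 4.13% of all genes.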

How the data were processed

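The authors trimmed reads with cutadapt, aligned them uniquely to mm10 with bowtie 1.0.0, removed mitochondrial and duplicate reads (Picard 2.3.0) and long fragments, and called peaks per library with MACS2, without pooling. The version is 2.1.1.20160309 in the submitters' processing notes, while the methods name another. Peaks on the ENCODE blacklist were removed. They deposited 1 peak list per library with a whole-number score of at least 13, which was taken as the MACS2 score from its values. It rises with sequencing depth, which is not given per library in the sources used here, and was therefore used only as a percentile within each library. The lists hold no reads, so no count test, counting interval or DiffBind comparison was possible.

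TSSs of every transcript and gene bodies were taken from GENCODE M21 and sequences from RefSeq's GRCm38.p6, the same build as mm10. Peaks overlapping or touching were merged into 183173 regions (minimum overlap 1 bp). Values per library were compared with two-sided exact permutation tests, adjusted over 21755 genes by Benjamini-Hochberg, and by whether groups overlapped. The search for peaks and the calls were tested on simulated libraries with planted promoter peaks. Genes named with values are Sema6a, members whose groups did not overlap, members open in all or no libraries, the 6 with the most regions and those at regions with a peak in Lats1-CKO libraries alone; the other members named were chosen after their values were seen. Sequences in UTRs were not printed. The rule for the members uses symbols alone, but the members, lists and tests were chosen with earlier results of these data known. The labels gave the groups; no sample was left out, and results were also computed without BM3. Alternatives were each library left out in turn, equal numbers of peaks, peaks above the median score, a 5 kb window, the gene's first TSS alone and gene-body peaks away from TSSs. The setting with equal numbers of peaks without BM3 was added on seeing the data. Scripts ran under python 3.11.15 with pysam 0.24.0 for sequences, scipy 1.17.1, pandas 2.3.3, numpy 2.4.6 and matplotlib 3.10.9.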

Additional observations from a re-analysis of the deposited data

Results flagged for a closer look

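The screen covered the members' gene-body peaks per 10000, their number of promoters with a peak and the promoter percentile of the 53 genes. It sought a library far from the other 3 of its genotype or population. The gap to the nearest value over the range of the group had to be above the critical value of Dixon's test. Chance passes that value in about 1 of 20 groups of normally distributed values. This rate does not hold for the promoters, because a gene without a peak has the value 0. A library with a peak beside 3 without one always passes, however weak the peak. Among Lats1-CKO libraries, BM3 stood apart for the gene-body peaks of the members (19.7 per 10000 peaks) and for the promoters of Efna1, Efnb1, Ephb1, Plxna2, Plxna3, Sema3d, Sema3g, Sema4b, Sema4c and Sema6b (0 in each, no peak), Efnb2 (54.9), Epha4 (64.4), Sema6c (48.0) and Plxna4 (85.9, where the others had no peak). Among luminal libraries it did so for Efnb1 and Ephb1 (0), Efnb2 (54.9), Ephb4 (56.4), Plxna4 (85.9), Sema6a (87.1) and Sema6c (48.0). BM3 also has the fewest peaks, 14753.

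Other libraries stood apart at fewer promoters. Among WT libraries these were BM1 for Efna3 (39.6), Plxnb3 (9.96) and Sema7a (27.8), BM2 for Epha3 (38.8) and Sema5b (3.18), and BM5 for Epha2 (36.7), Epha7 (85.3) and Nrp1 (39.1). Among Lats1-CKO libraries they were BM7 for Efna4 (55.7) and Efna5 (32.2) and BM8 for Sema7a (58.5). Among luminal libraries they were BM1 for Efna3 (39.6), BM5 for Nrp1 (39.1), and BM7 for Epha3 (43.3), Sema4a (56.7) and Sema5b (21.3). Among basal-like libraries they were BM4 for Epha7 (66.9) and Sema4a (42.5), BM6 for Efna5 (26.4) and Epha8 (30.0), and BM8 for Plxnb3 (73.6), Sema5b (49.7) and Sema7a (58.5).

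At 2 promoters the difference between genotypes had opposite directions in the populations, each without overlap of the 2 libraries against 2. For Epha1, Lats1-CKO minus WT was 5.25 percentile points in luminal and -38.3 points in basal-like cells. For Plxnb1 it was -41.3 points in luminal cells, BM3 being one of the libraries, and 46.7 points in basal-like cells. The difference between these effects was not tested.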

How the results depend on the processing

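The differences between groups in the number of members with a promoter peak and in their gene-body peaks per 10000 stayed within 1 pooled SD of the reported value under every alternative run. That SD (8.52 and 8.60 members, 4.30 and 3.81 per 10000) includes BM3, which widens it, so staying within it shows little. Leaving out 1 library took the first from -7.25 to 1.08 members between genotypes and from -1.67 to 6.67 between populations, and the second from -2.61 to 1.46 and from 1.22 to 5.29. Among these, the positive genotype differences and the negative population difference were those without BM3. Signs also turned with BM3 kept: with equal numbers of peaks the members with a promoter peak differed by 0.5 between genotypes and by -3 between populations, and with only peaks above the median score they differed by -0.25 between populations, and gene-body peaks by -0.018. Counts of members whose promoters did not overlap between groups rest on few genes and moved more. Leaving out 1 library gave 1 to 5 members higher and 1 to 3 lower in Lats1-CKO, and 0 to 1 higher and 1 to 3 lower in basal-like; the 5, and the 3 lower in basal-like, were without BM3, the 3 lower in Lats1-CKO were without BM7 (2 without BM4 or BM8), and the 1 higher in basal-like was without BM4, BM5 or BM6. With equal numbers of peaks, or with only the peaks above the median score, 0 members were higher and 0 lower in Lats1-CKO, and with equal numbers 0 were lower in basal-like. With equal numbers of peaks without BM3 (chosen after seeing the data), 0 were higher and 0 lower in Lats1-CKO and 3 were lower in basal-like. With a 5 kb window 0 were higher in Lats1-CKO and 1 in basal-like. The cause was not tested. The named differences kept their direction where a peak remained: Sema5a ranged from 32.6 (5 kb) to 60.8 points, and Epha1 from -72.0 to -29.1, the last with equal numbers of peaks. At Epha8 no peak remained in any library among the 14753 highest-scoring peaks, so its difference was 0. Leaving out 1 library gave exact permutation p-values of 0.029 to 0.057 for each of the 3, with 0.057 where any WT library was left out for Sema5a, any Lats1-CKO library for Epha8 and any luminal library for Epha1; with 3 against 4 libraries fewer splits exist. No paired analysis was possible because the labels give no replicate numbers and nothing in them pairs libraries across populations or genotypes. The depth of each library limits these results: a missing peak in a short list, BM3 above all, is not evidence of closed chromatin.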
